A study of Mus musculus with 17 samples.

Results

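The 10 genes described here control how pyruvate enters mitochondria and whether it is burned there, and they were read in testes and forebrain of newborn mice that lacked osteocalcin to different degrees. They were chosen by name as the rows of the deposited count table whose Ensembl identifier belongs to *Pdk1*, *Pdk2*, *Pdk3*, *Pdk4*, *Pdp1*, *Pdp2*, *Pdha1*, *Pdhb*, *Mpc1* or *Mpc2*. All 10 were found among the 55359 rows, and all 10 passed the filter on low counts in both organs. The study asked what loss of osteocalcin, a hormone made by bone, does before birth when it affects the pup, the mother or both. The mice were males at postnatal day 1 of the *Ocn*_GK strain, made by homologous recombination in embryonic stem cells and kept on a 129/SvEv background. WT pups came from WT mothers, whereas *Ocn*+/- and *Ocn*-/- pups came from *Ocn*-/- mothers, so in any comparison with WT the effects of pup genotype, maternal genotype and litter cannot be told apart. There were 2 WT, 3 *Ocn*+/- and 3 *Ocn*-/- testes and 3 forebrains of each genotype. The caption of the study's forebrain heatmap gives 2 WT mice, whereas all 3 labelled WT forebrains are used here. The labels call the brain samples hippocampus, and the study's text calls them forebrain. No source used here says whether a testis and a forebrain came from the same mouse.

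Pyruvate, the end product of glycolysis, crosses the inner mitochondrial membrane through a carrier built from the proteins of *Mpc1* and *Mpc2*. Inside, the pyruvate dehydrogenase complex turns it into acetyl-CoA. *Pdha1* and *Pdhb* encode the subunits of the complex's first enzyme. Pyruvate dehydrogenase kinases (*Pdk1* to *Pdk4*) phosphorylate the *Pdha1* protein and switch the complex off, and the phosphatases of *Pdp1* and *Pdp2* remove that phosphate and switch it on again. The kinase genes respond to different cues: *Pdk1* is a known target of hypoxia-inducible factor, and *Pdk4* rises with fasting, fatty acids and glucocorticoids in many tissues. In the testis, Sertoli cells feed lactate made from pyruvate to germ cells, and in the brain the complex is the main route by which glucose carbon is oxidized. The data are transcript levels and do not show enzyme activity or phosphorylation.

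Levels are CPM, that is counts scaled for library size, with TMM factors computed within an organ, and changes are log2 fold changes from edgeR's quasi-likelihood test, with p adjusted by Benjamini-Hochberg over all genes tested and a call at an adjusted p under 0.05. A testis library held 7302401 to 8289015 counts and a forebrain library 6518151 to 14621584. Forebrain WT 3 stood apart: it was the shallowest library, a ribosomal RNA gene took 8.50% of its counts, and 5.34% were mitochondrial against at most 3.18% in the other forebrains. The deleted genes could not check the labels, since *Bglap* had 0 to 5 counts per library and *Bglap2* 0 in all 17, which allows up to 3 counts. Neuron markers summed to 3040 to 3591 CPM in forebrain and 38.4 to 51.8 CPM in testes, and Sertoli markers to 1686 to 2682 CPM in testes and 55.6 to 70.8 CPM in forebrain. Nothing states that the libraries of a genotype came from separate litters, so p-values measure only the spread between these samples.

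*Pdk1* was the member that fell in both organs. The gene (ENSMUSG00000006494.12) lies on the plus strand at chr2:71703488-71734202 of GRCm39. The testes held 154 and 179.8 CPM in WT, 78.0, 72.8 and 82.9 in *Ocn*+/- and 95.3, 94.3 and 94.3 in *Ocn*-/- mice. All 6 mutant testes lay far below both WT testes, and the mutant libraries spread much less than the distance to WT. The log2 fold change was -1.10 ± 0.12 (SE) in *Ocn*+/- testes (adjusted p = 4.5e-05) and -0.82 ± 0.12 in *Ocn*-/- testes (adjusted p = 0.00085), which left 46.7% and 56.7% of the WT level. In forebrain *Pdk1* stood at 68.9, 79.9 and 98.2 CPM in WT, at 52.4, 50.5 and 52.5 in *Ocn*+/- and at 50.6, 51.4 and 49.5 in *Ocn*-/- mice. The 6 mutant forebrains sat within a narrow band below the lowest WT forebrain, while the WT forebrains spread widely with WT 3 the highest. The change was -0.66 ± 0.11 in *Ocn*+/- (adjusted p = 0.0019) and -0.70 ± 0.11 in *Ocn*-/- forebrain (adjusted p = 0.0012). Without WT 3 it was -0.52 and -0.55, and the adjusted p was 0.014 and 0.0092.

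*Pdk4* (ENSMUSG00000019577.7, minus strand, chr6:5483097-5496339 of GRCm39) was the scarcest member in reads, with 27 to 122 counts per testis and 45 to 101 per forebrain. The WT testes held 12.3 and 15.4 CPM. The *Ocn*+/- testes held 6.64, 6.18 and 6.33 CPM and the *Ocn*-/- testes 3.20, 5.86 and 5.56. No mutant testis reached the level of a WT testis. The log2 fold change was -1.12 ± 0.28 in *Ocn*+/- (adjusted p = 0.025) and -1.51 ± 0.29 in *Ocn*-/- testes (adjusted p = 0.0065). In forebrain *Pdk4* was at 7.70, 7.95 and 8.01 CPM in WT, at 3.52, 6.28 and 6.79 in *Ocn*+/- and at 4.47, 5.96 and 5.04 in *Ocn*-/- mice. Here too every mutant library was below every WT library, but the mutants spread widely and no call was made, with -0.51 ± 0.24 (adjusted p = 0.23) and -0.60 ± 0.24 (adjusted p = 0.14). The *Ocn*+/- change was -0.27 without *Ocn*+/- forebrain 1 (adjusted p = 0.56). Calls in testes changed when single libraries were left out. Without WT testis 2 the *Ocn*-/- change of *Pdk4* was -1.32 (adjusted p = 0.17) and that of *Pdk1* -0.68 (adjusted p = 0.061). The *Ocn*+/- call of *Pdk4* was lost without WT testis 1 (-1.26, adjusted p = 0.11), WT testis 2 (-0.93, 0.26), *Ocn*+/- testis 1 (-1.14, 0.072) or *Ocn*+/- testis 3 (-1.11, 0.079), with SEs of 0.33 to 0.38. A fit without a WT testis leaves a lone WT library, which is assumed to vary like the mutant testes.

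**Figure D1:**
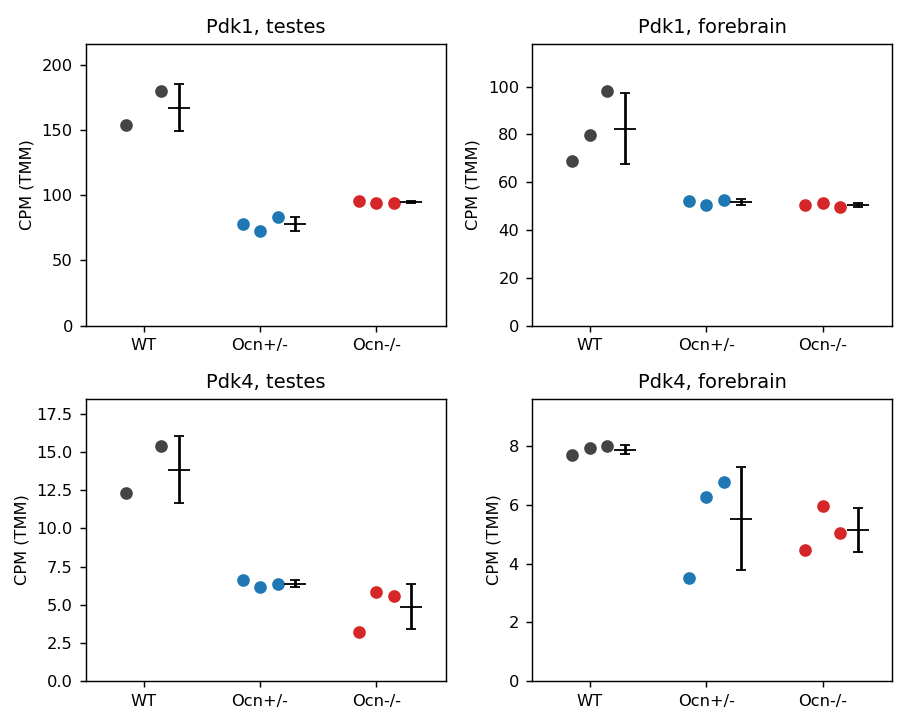
Levels of *Pdk1* (top) and *Pdk4* (bottom) in testes (left) and forebrain (right), in CPM with TMM scaling on axes that start at 0. Each dot is a library, and the bar beside each genotype is the mean ± SD of 2 WT testes or 3 libraries; in all 4 panels every mutant library lies below every WT library.

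The promoters of the kinases that fell are shown because both genes are known to be controlled at transcription. The 250 bases before the RefSeq start site, taken from RefSeq's GRCm38.p6 table and found unchanged in GRCm39, follow from 5′ to 3′ with every CpG in capitals. That of *Pdk1* is on the plus strand at chr2:71703318-71703567 and that of *Pdk4* on the minus strand at chr6:5496279-5496528.
Pdk1: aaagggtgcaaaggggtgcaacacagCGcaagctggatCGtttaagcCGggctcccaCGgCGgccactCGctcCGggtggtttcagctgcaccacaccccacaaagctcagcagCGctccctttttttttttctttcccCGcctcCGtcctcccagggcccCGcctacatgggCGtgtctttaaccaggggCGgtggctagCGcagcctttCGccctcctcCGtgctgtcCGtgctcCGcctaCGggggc
Pdk4: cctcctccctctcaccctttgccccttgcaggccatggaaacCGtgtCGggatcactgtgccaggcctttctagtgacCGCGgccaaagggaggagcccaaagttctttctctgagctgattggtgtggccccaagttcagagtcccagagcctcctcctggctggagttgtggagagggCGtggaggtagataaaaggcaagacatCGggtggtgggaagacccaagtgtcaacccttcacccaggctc
The *Pdk1* stretch holds 19 CpG and the *Pdk4* stretch 6, against a median of 6 and an upper quartile of 16 over 32851 RefSeq mouse promoters. RefSeq gives *Pdk1* another start site inside the gene, whose upstream stretch holds 2 CpG.

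RefSeq windows reaching from 250 bases before to 50 bases after the start site were at hand for 9 of the 10 members, the exception being *Pdp1*. They were searched on both strands for the hypoxia-inducible factor core ACGTG, which is present in 19.6% of all promoters, the E-box CACGTG (7.15%), which contains that core, and the glucocorticoid receptor motif AGAACA (19.0%). The FOXO site GTAAACA (3.65%), the orphan receptor site TCAAGGTCA (0.423%), the NR4A site AAAGGTCA (1.51%) and the cAMP element TGACGTCA (1.79%) were searched in the same way. Neither the first *Pdk1* window nor the *Pdk4* window contained any of the 7 motifs. The second *Pdk1* window had 2 copies of AGAACA, beginning 153 and 138 bases before its start site. ACGTG was present in a window of *Pdk2*, *Pdk3*, *Pdp2* and *Pdhb*, and CACGTG in those of *Pdk2* and *Pdp2*. The *Pdhb* window was not found unchanged in GRCm39 on the strand RefSeq's table gives, so it was read from that table only. These are matches of letters and show no binding.

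*Pdk2* and *Pdk3* were not called against WT in either organ. *Pdk2* (ENSMUSG00000038967.14, chr11:94914929-94932242), the most widely expressed kinase of the family, was at 35.8 and 36.5 CPM in WT testes, at 28.7, 38.4 and 32.7 in *Ocn*+/- and at 29.3, 26.3 and 24.8 in *Ocn*-/- testes. In forebrain it was at 19.4, 21.1 and 23.3 CPM in WT, at 19.1, 19.1 and 17.8 in *Ocn*+/- and at 15.8, 16.1 and 17.01 in *Ocn*-/- mice. The *Ocn*-/- libraries of both organs and the *Ocn*+/- forebrains lay below WT, the *Ocn*-/- libraries by -0.43 ± 0.16 in testes (adjusted p = 0.13) and -0.37 ± 0.13 in forebrain (adjusted p = 0.093), and neither passed. *Pdk3* (ENSMUSG00000035232.9, chrX:92789513-92876389) is X-linked. Its testes held 62.8 and 59.9 CPM in WT, 54.3, 55.6 and 52.4 in *Ocn*+/- and 55.2, 62.4 and 62.2 in *Ocn*-/- mice. The *Ocn*+/- testes lay below both WT testes and the *Ocn*-/- testes overlapped with them. Its forebrains held 13.3 to 19.9 CPM with overlapping genotypes.

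The phosphatases, which oppose the kinases, were not called in any comparison with WT. *Pdp1* (ENSMUSG00000049225.15, chr4:11957712-11966468), the form stimulated by calcium, was at 108 and 98.9 CPM in WT testes, at 68.7, 79.6 and 93.1 in *Ocn*+/- and at 76.5, 93.3 and 89.8 in *Ocn*-/- testes. All 6 mutant testes were below WT, but the change of -0.36 ± 0.14 in *Ocn*+/- testes had an adjusted p of 0.11. Forebrains held 66.4 to 80.9 CPM with overlapping genotypes. *Pdp2* (ENSMUSG00000048371.9, chr8:105318052-105325671) was low, at 14.4 and 16.3 CPM in WT, 12.3, 14.3 and 10.2 in *Ocn*+/- and 20.5, 14.7 and 10.7 in *Ocn*-/- testes. Its forebrain levels of 16.5 to 23.7 CPM overlapped between all genotypes.

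Neither gene of the enzyme itself was called within an organ. *Pdha1* (ENSMUSG00000031299.11, chrX:158904237-158921426) was at 125 and 134 CPM in WT testes, at 98.2, 113 and 111 in *Ocn*+/- and at 97.8, 118 and 89.6 in *Ocn*-/- testes. In forebrain it was at 192, 198 and 201 CPM in WT, at 213, 226 and 212 in *Ocn*+/- and at 203, 219 and 222 in *Ocn*-/- mice. For *Pdha1* the mutants thus parted from WT without overlap in both organs but in opposite directions. Over all genes tested, 13.6% had every mutant testis below WT and 6.85% every mutant forebrain above WT. In *Ocn*-/- testes the change was -0.35 ± 0.13 (adjusted p = 0.12), and it passed only without *Ocn*-/- testis 2 (-0.47, adjusted p = 0.029). *Pdhb* (ENSMUSG00000021748.10, chr14:14296739-14304802) overlapped between genotypes in testes at 61.2 to 83.8 CPM. In forebrain it was at 84.2, 84.0 and 82.0 CPM in WT, at 86.3, 89.7 and 95.7 in *Ocn*+/- and at 88.2, 95.4 and 91.2 in *Ocn*-/- mice, with no call.

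Neither carrier gene was called within an organ. *Mpc2* (ENSMUSG00000026568.7, chr1:165287125-165308785) was at 42.6 and 42.4 CPM in WT testes, at 33.2, 29.8 and 36.9 in *Ocn*+/- and at 30.9, 34.3 and 31.2 in *Ocn*-/- testes. Every mutant testis was lower than WT, by -0.35 ± 0.15 (adjusted p = 0.15) and -0.40 ± 0.15 (adjusted p = 0.12). The forebrains stood at 34.4, 35.1 and 29.5 CPM in WT, 34.8, 39.0 and 37.4 in *Ocn*+/- and 36.7, 38.1 and 39.6 in *Ocn*-/- mice. *Mpc1* (ENSMUSG00000023861.18, chr17:8501736-8516498) was at 37.6 and 39.6 CPM in WT, 28.0, 32.4 and 34.4 in *Ocn*+/- and 35.3, 37.8 and 32.2 in *Ocn*-/- testes, and at 71.5 to 96.9 CPM in forebrain with overlapping genotypes. Of the 50-base stretches of *Mpc1* and *Pdhb*, 6.20% and 7.05% also occur in other genes, *Mpc1*-ps and *Gm6123* among them, so a share of their reads may be divided. For the other members this share was at most 1.28%.

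In testes, 2 of 10 members were called in *Ocn*+/- mice, where 8.25% of the 16361 genes tested were called, and 2 of 10 in *Ocn*-/- mice, where 5.64% were. All 4 calls were lower levels of *Pdk1* or *Pdk4*. The median member changed by -0.30 in *Ocn*+/- and -0.31 in *Ocn*-/- testes, against 0.01 and -0.01 over all genes tested, and the estimates of all 10 members were below 0 in both genotypes. Every mutant testis lay below every WT testis for 5 of 10 members, *Pdk1*, *Pdk4*, *Pdp1*, *Pdha1* and *Mpc2*, and for 13.6% of all genes tested. In forebrain, 1 of 10 members was called in *Ocn*+/- mice, against 3.89% of 16076 genes, and 1 of 10 in *Ocn*-/- mice, against 4.85%. Both calls were *Pdk1*. The median member changed by 0.01 and 0.05 there, against 0.01 over all genes in both genotypes. Every mutant forebrain lay below WT for *Pdk1*, *Pdk2* and *Pdk4* (8.57% of all genes) and above WT for *Pdha1* and *Pdhb* (6.85%). The comparisons of *Ocn*+/- and *Ocn*-/- mice share their WT libraries and are not independent.

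**Figure D2:**
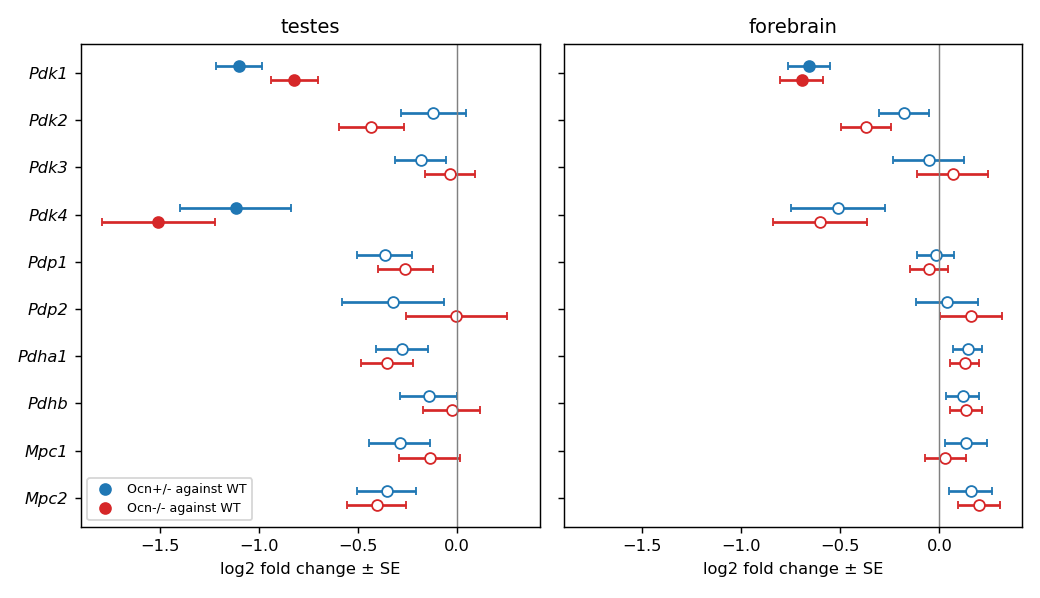
Change of each member against WT in testes (left) and forebrain (right), as log2 fold change ± SE from edgeR, for *Ocn*+/- (blue) and *Ocn*-/- (red) mice. Filled dots have an adjusted p under 0.05: *Pdk1* and *Pdk4* in testes and *Pdk1* in forebrain, all below 0.

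Between the mutant genotypes, which share the mother's genotype, 0 of 10 members were called in testes and 0 of 10 in forebrain. In testes edgeR's quasi-likelihood test called 0.0% of all genes, with 1881 at an unadjusted p under 0.05. It called 252 genes without the filter on low counts, while edgeR's likelihood ratio test called 59 and DESeq2's Wald test 70, each with 0 members among them. In forebrain edgeR called 0.00622%, a single gene. *Pdk1* was 0.28 ± 0.11 higher on the log2 scale in *Ocn*-/- than in *Ocn*+/- testes, where the libraries did not overlap, with an unadjusted p of 0.019 and an adjusted p of 0.35. *Pdk4* was 0.39 ± 0.27 lower (log2 fold change -0.39, adjusted p = 0.60), and -0.15 without *Ocn*-/- testis 1, the lowest of the *Ocn*-/- testes. In forebrain the differences were -0.04 ± 0.11 for *Pdk1* and -0.09 ± 0.23 for *Pdk4*, each with an adjusted p of 0.999.

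Whether the mutant effect differed between organs was tested in a joint fit of all 17 libraries, as the mean change of both mutant genotypes in forebrain minus that in testes. It was called for 2 of 10 members, *Mpc2* and *Pdha1*, where 2.96% of 17800 genes were called. *Mpc2* differed by 0.57 ± 0.15 (adjusted p = 0.037), with -0.38 in testes and 0.18 in forebrain when each organ was fitted alone. *Pdha1* differed by 0.46 ± 0.13 (adjusted p = 0.045), with -0.31 in testes and 0.14 in forebrain. *Mpc2* was called in 14 and *Pdha1* in 9 of 26 alternatives. Both were lost with library sizes left unscaled (0.57 and 0.47), and *Pdha1* also with upper quartile scaling (0.45, adjusted p = 0.055) and DESeq2 size factors (0.46, adjusted p = 0.054). Neither was called in 10 of 17 fits that left out a library, among them that without forebrain WT 3, where *Mpc2* differed by 0.50 (adjusted p = 0.11) and *Pdha1* by 0.47 (adjusted p = 0.084). For *Pdk4* the difference was 0.77 ± 0.33 (adjusted p = 0.21) and for *Pdk1* 0.29 ± 0.14 (adjusted p = 0.28), so the larger falls in testes were not shown to differ from those in forebrain.

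**Figure D3:**
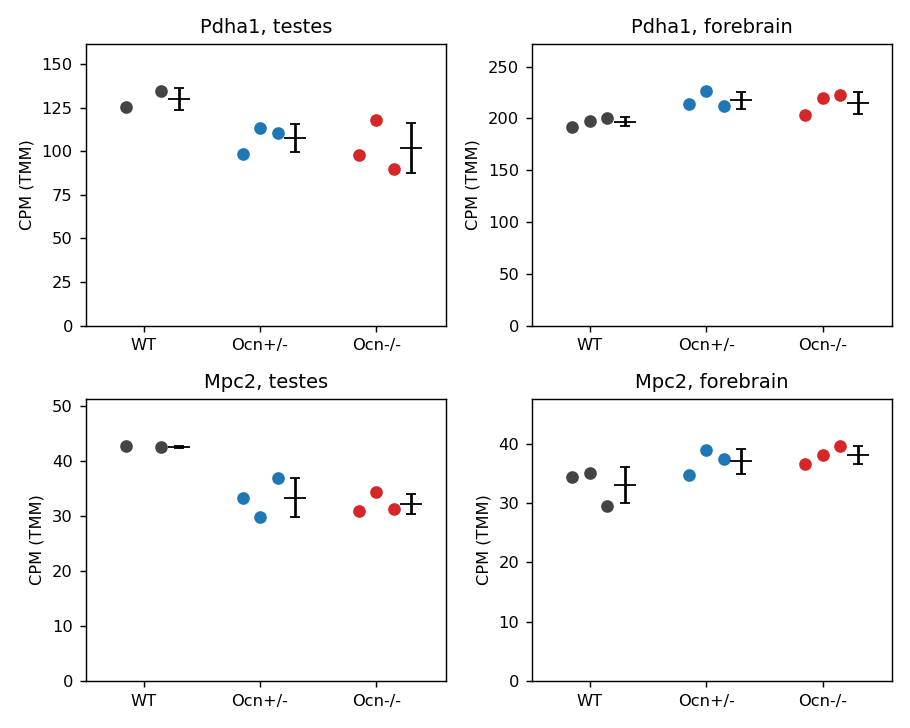
Levels of *Pdha1* (top) and *Mpc2* (bottom) in testes (left) and forebrain (right), in CPM with TMM scaling, with dots for libraries and bars for mean ± SD. All mutant testes lie below the 2 WT testes for both genes, and in forebrain all 6 mutants lie above WT for *Pdha1*.

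The members were also compared between the organs, where their share of calls was close to that of all genes. In the joint fit, 8 of 10 members differed between testes and forebrain as a mean over genotypes, where 84.4% of genes did, 3 of them higher and 5 lower in testes. *Pdk3* was the most testis-weighted, at a median of 51.5 CPM (46.0 to 55.8) in 8 testes and 15.8 CPM (14.98 to 22.3) in 9 forebrains, a log2 difference of 1.58 ± 0.09 (adjusted p = 2.6e-14). *Pdk1* was 0.51 ± 0.07 and *Pdk2* 0.45 ± 0.08 higher in testes, although the ranges of the libraries overlapped. *Mpc1* was the most forebrain-weighted, at 30.8 CPM (24.7 to 35.3) in testes and 94.8 CPM (79.5 to 108) in forebrain, a log2 difference of -1.62 ± 0.07 (adjusted p = 1.5e-16). *Pdha1* followed with 99.0 CPM (80.4 to 120) against 235 CPM (213 to 252), a difference of -1.23 ± 0.06. *Pdp2* (-0.80 ± 0.12), *Pdhb* (-0.63 ± 0.07) and *Mpc2* (-0.34 ± 0.07) were also lower in testes, with overlapping ranges for *Pdp2* and *Mpc2*. *Pdk4* (-0.01 ± 0.15, adjusted p = 0.93) and *Pdp1* (0.03 ± 0.07, adjusted p = 0.69) were not called, and the sign of *Pdk4* turned under 4 other settings and without some libraries. These differences depend on scaling: with unscaled library sizes the median of all genes moved from 0.09 to 0.40 and *Mpc2* was no longer called (-0.03, adjusted p = 0.76), while *Pdp1* was called higher in testes (0.35, adjusted p = 2.1e-05). Upper quartile scaling also called *Pdp1* (0.18, adjusted p = 0.019).

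**Figure D4:**
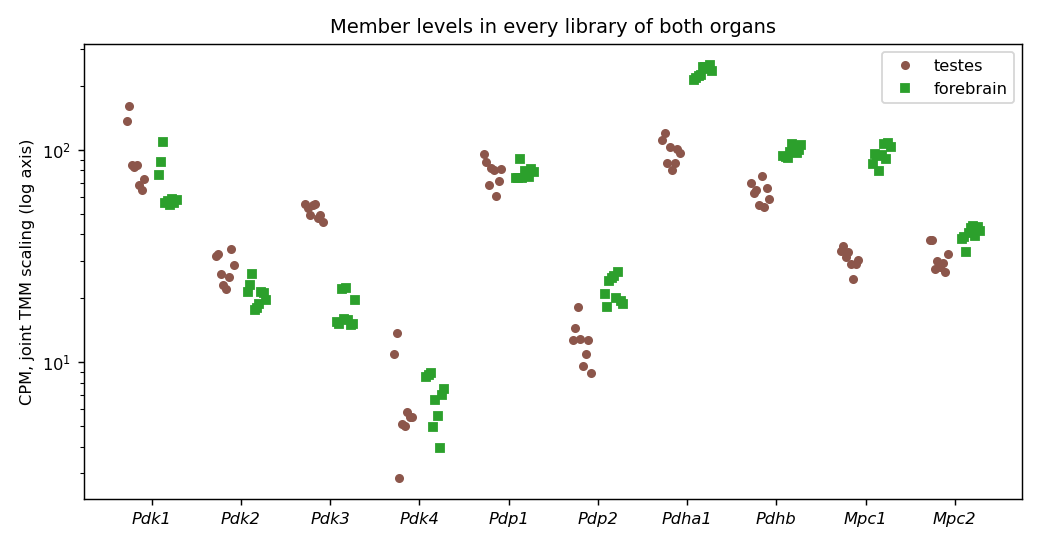
Level of each member in every library, in CPM scaled jointly over both organs on a log axis, with circles for 8 testes and squares for 9 forebrains. *Pdk3* is higher in all testes, and *Pdha1*, *Pdhb* and *Mpc1* are higher in all forebrains; levels of different genes are not comparable here, since they are not divided by length.

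Levels of different members can be compared only per kilobase, here as CPM of the joint scaling divided by the length of all exons of a gene. In WT testes the order ran from *Pdha1* (21.6 ± 1.15, SD, n = 2) over *Pdk1* (16.8 ± 1.89) and *Pdp1* (16.8 ± 1.01), which did not differ beyond their spread, to *Pdhb*, *Mpc1*, *Pdk3*, *Mpc2*, *Pdk2*, *Pdk4* (3.24 ± 0.52) and *Pdp2* (2.35 ± 0.21). In WT forebrain it ran from *Pdha1* (40.9 ± 0.99, n = 3) over *Mpc1* (26.1 ± 1.47) and *Pdhb* (18.9 ± 0.20) to *Pdk4* (2.30 ± 0.05) and *Pdk3* (2.13 ± 0.47), which were not separated by their spread. With the longest coding transcript as length, the carrier genes moved up: *Mpc1* was then first in WT forebrain (81.0 ± 4.56) and *Mpc2* rose to 25.7 ± 0.02 in WT testes, beside *Pdhb* at 26.5 ± 2.03. That length also parted both pairs: *Pdk1* was at 27.6 ± 3.09 and *Pdp1* at 17.9 ± 1.08 in WT testes, and *Pdk3* (2.91 to 4.24) lay above *Pdk4* (2.27 to 2.37) in WT forebrain.

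By this measure *Pdk1* was the leading kinase transcript in every group. It made up 55.2% of the sum of the 4 kinases in WT testes (53.8% and 56.7%), 42.2% in *Ocn*+/- testes (39.1% to 44.3%) and 47.9% in *Ocn*-/- testes (46.8% to 49.7%). *Pdk3* went the other way, from 21.8% in WT to 31.4% and 32.5% in the mutants, while its own level was below WT in *Ocn*+/- testes and overlapped with WT in *Ocn*-/- testes, with no call. The share of *Pdk4* was 10.6% in WT testes (9.97% and 11.3%), 8.03% in *Ocn*+/- (7.72% to 8.52%) and 5.70% in *Ocn*-/- testes (3.87% to 6.75%). With the coding transcript's length it was 6.70%, 4.96% and 3.53%. The level of *Pdk4* was not called between the mutant genotypes, so no step between them was shown. The summed kinase level was 28.8 and 32.0 CPM per kilobase in WT testes, 18.1 to 18.8 in *Ocn*+/- and 19.4 to 20.3 in *Ocn*-/- testes, and the WT mean moved from 30.4 to 48.8 with the coding transcript's length. In forebrain it was 15.3 to 20.5 in WT, 12.04 to 13.3 in *Ocn*+/- and 11.7 to 13.1 in *Ocn*-/- mice. The ratio of kinase to phosphatase transcripts was 1.60 in WT testes (1.47 and 1.73), 1.26 in *Ocn*+/- (1.14 to 1.40) and 1.22 in *Ocn*-/- testes (1.17 to 1.25). In forebrain it was 0.969 in WT (0.896 to 1.02), 0.701 in *Ocn*+/- (0.661 to 0.751) and 0.679 in *Ocn*-/- mice (0.658 to 0.694). The mutant ranges of this ratio lay below WT in both organs. With that length the ratios were higher, at 2.41, 1.94 and 1.88 in testes and 1.47, 1.07 and 1.04 in forebrain, in the same order of genotypes. These sums are made of members already described and carry no test of their own.

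**Figure D5:**
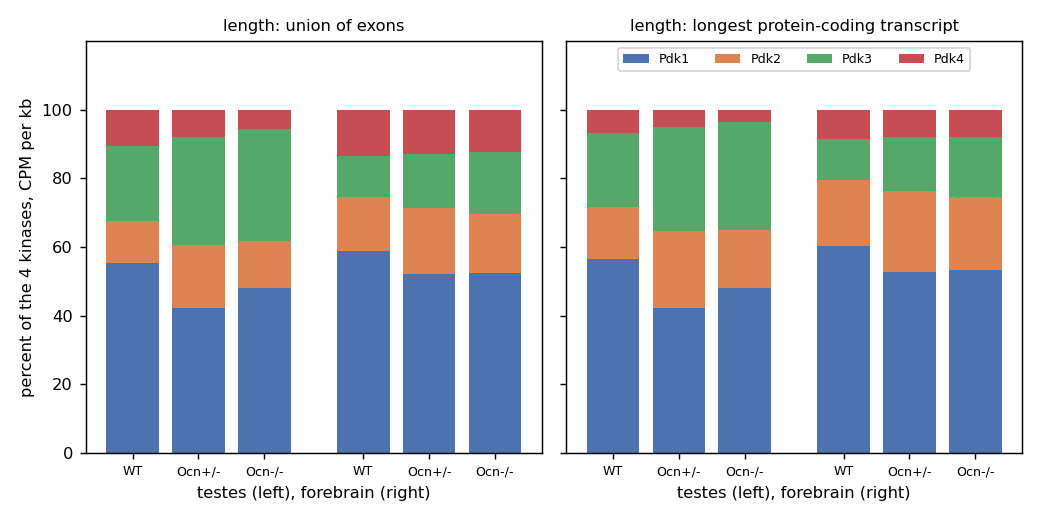
Mean share of each kinase in the summed CPM per kilobase of *Pdk1* to *Pdk4*, by genotype in testes (left 3 bars) and forebrain (right 3 bars), with the length of all exons (left) or of the longest coding transcript (right). *Pdk1* is the largest share in all groups, and its share is smaller in both mutant genotypes than in WT.

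The rest of the pathway was read from fixed lists. Over all genes tested, 8.25% and 5.64% were called in *Ocn*+/- and *Ocn*-/- testes and 3.89% and 4.85% in forebrain. These shares apply to every list below, cell type markers included, so 1 call in a short list is not a result about that list. Of 10 tested genes that complete the pyruvate dehydrogenase complex or supply its cofactors, 1 fell in *Ocn*+/- testes and 0 were called in *Ocn*-/- testes. The gene that fell was *Dld*, which encodes the dehydrogenase shared by the sister complexes (-0.52, adjusted p = 0.022). In forebrain 1 of 10 rose in each mutant genotype, *Pdhx*, which anchors that dehydrogenase, by 0.43 (adjusted p = 0.046) in *Ocn*+/- and 0.54 (adjusted p = 0.012) in *Ocn*-/- mice. *Pdhx* stood at 30.2 to 40.9 CPM in WT forebrain and at 43.0 to 48.8 and 47.3 to 53.3 in the mutants. Only the members were followed under other settings. Calls of single genes in this and the following lists were not checked without forebrain WT 3. The testis-specific *Pdha2*, a gene of meiotic and later germ cells, had 3 to 9 counts per testis and 0 in every forebrain, which allows up to 3.

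Among the genes that make pyruvate or send it elsewhere, 2 of 12 fell in testes of each mutant genotype, and both belong to the end of glycolysis. *Ldha*, which turns pyruvate into lactate, was at 454 and 529 CPM in WT testes, at 154 to 182 in *Ocn*+/- and at 151 to 194 in *Ocn*-/- testes. Its change was -1.54 (adjusted p = 5.6e-06) and -1.49 (adjusted p = 8.9e-06). *Pkm*, the pyruvate kinase gene, fell from 646 and 784 CPM in WT to 336 to 487 in *Ocn*+/- (-0.78, adjusted p = 0.0054) and 334 to 367 in *Ocn*-/- testes (-1.02, adjusted p = 0.00082). In forebrain 1 of 10 fell in *Ocn*+/- mice, *Ldha* by -0.38 (adjusted p = 0.029), and 0 of 10 in *Ocn*-/- mice, where *Ldha* was at -0.29 (adjusted p = 0.074). The fall of *Ldha* was larger in testes than in forebrain, by 1.19 on the log2 scale (adjusted p = 4.4e-05), and so was that of *Pkm*, by 0.71 (adjusted p = 0.0081).

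The sister complexes, which handle branched-chain keto acids and 2-oxoglutarate in the same chemical way, were read from 7 genes. Of these 7, 1 fell in *Ocn*+/- testes (*Dbt*, -0.62, adjusted p = 0.033), 0 were called in *Ocn*-/- testes and 1 rose in each mutant forebrain. That gene was *Ogdh*, at 0.31 (adjusted p = 0.029) and 0.33 (adjusted p = 0.020). The shares called over all genes were 8.25% and 5.64% in testes and 3.89% and 4.85% in forebrain. *Bckdk*, the kinase of the branched-chain complex and a relative of the *Pdk* genes, was not called, with 0.37 and 0.08 in testes and 0.00 and 0.12 in forebrain.

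Of 12 transcription factors known to act on *Pdk4*, 1 fell in *Ocn*+/- and 2 fell in *Ocn*-/- testes, and of 11 tested in forebrain 0 were called in either genotype. In testes 8.25% and 5.64% of all genes tested were called. The nuclear receptor *Nr4a1* went from 223 and 226 CPM in WT testes to 64.0 to 84.8 in *Ocn*+/- (-1.65, adjusted p = 0.0031) and 36.1 to 69.9 in *Ocn*-/- testes (-2.12, adjusted p = 0.00078). *Klf15*, a factor of fasting and glucocorticoid responses, was at 13.3 and 18.04 CPM in WT, 6.18 to 10.2 in *Ocn*+/- (-0.99, adjusted p = 0.0502) and 4.33 to 8.54 in *Ocn*-/- testes (-1.35, adjusted p = 0.017). *Hif1a*, *Foxo1*, *Foxo3*, *Nr3c1*, *Ppara* and *Ppard* were not called in any comparison with WT.

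Of 12 other genes known to follow the same factors, 2 fell and 0 rose in *Ocn*+/- testes, 2 fell and 2 rose in *Ocn*-/- testes, and 1 fell and 2 rose in each mutant forebrain. Beside these stand 8.25% and 5.64% of all genes called in testes and 3.89% and 4.85% in forebrain. The fatty acid genes *Cpt1a* and *Angptl4*, which rise together with *Pdk4* in fasting, were the genes that rose. *Cpt1a*, the gate of fatty acids into mitochondria, rose by 0.52 in *Ocn*-/- testes (adjusted p = 0.028) and by 0.69 and 0.56 in *Ocn*+/- and *Ocn*-/- forebrain (adjusted p = 0.0010 and 0.0058). *Angptl4*, a secreted inhibitor of lipoprotein lipase, rose by 1.15 in *Ocn*-/- testes (adjusted p = 0.038) and by 1.28 and 1.32 in forebrain (adjusted p = 0.0085 and 0.0066). The genes that fell were *Acot1*, an acyl-CoA thioesterase, in both mutant testes (-0.78 and -0.84, adjusted p = 0.029 and 0.024) and the clock gene *Per1* in testes (-1.56 and -1.89) and forebrain (-0.49 and -0.61).

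Markers of some cell types differed between genotypes, and those of others did not. In whole organs fewer cells of a type and less RNA per cell cannot be told apart. In testes the 5 endothelial markers summed to 529 and 544 CPM in WT, 328 to 390 in *Ocn*+/- and 311 to 350 in *Ocn*-/- mice, with 3 and 5 of 5 called lower. The 6 Leydig markers summed to 1691 and 1772 CPM in WT, 714 to 1249 in *Ocn*+/- and 742 to 1134 in *Ocn*-/- testes, with 1 of 6 called lower (*Lhcgr*). Of 6 Sertoli markers 1 was called higher (*Sox9*), and of 5 macrophage markers 2 were called higher in *Ocn*+/- and 0 in *Ocn*-/- testes. The 6 adipocyte markers summed to 20.9 to 27.9 CPM over all testes, with 1 of 3 tested called lower in both mutant genotypes (*Fabp4*, -1.65 and -2.06, adjusted p = 0.022 and 0.0088), and *Adipoq* had 0 to 4 counts per testis. Skeletal muscle markers summed to 6.48 to 12.2 CPM per testis. Erythroid markers summed to 2597 and 6861 CPM in WT, 865 to 3941 in *Ocn*+/- and 1315 to 2515 in *Ocn*-/- testes, and smooth muscle markers to 885 and 1091, 747 to 940.4 and 647 to 857 CPM. Of each list 0 of 5 tested were called in either genotype, and all 5 estimates were below 0, with erythroid medians of -1.03 and -1.41 and smooth muscle medians of -0.38 and -0.44. Germ cell markers summed to 323 and 375 CPM in WT and 297 to 350 in mutants, with 0 of 6 called. In forebrain endothelial markers summed to 126 to 155 CPM in WT, 105 to 132 in *Ocn*+/- and 97.1 to 139.6 in *Ocn*-/- mice, with 2 and 1 of 5 called lower. Olfactory bulb markers summed to 42.9 to 58.0 CPM in WT, 119 to 150.3 in *Ocn*+/- and 42.1 to 105 in *Ocn*-/- forebrain, with 0 of 6 called, and the 6 general forebrain markers reported here to 492 to 620.5, 427 to 490.5 and 466 to 583 CPM. Choroid plexus markers summed to 568 to 739 CPM in WT, 573 to 861 in *Ocn*+/- and 323 to 531 in *Ocn*-/- forebrain, with 0 and 1 of 5 called lower (*Aqp1*, -0.85, adjusted p = 0.014). Erythroid markers summed to 522 to 719 CPM in WT, 356 to 407 in *Ocn*+/- and 486 to 599 in *Ocn*-/- forebrain, with 3 and 0 of 5 tested called lower. Of 5 macrophage and microglia markers 1 was called higher in both mutant forebrains (*Cx3cr1*, 0.84 and 0.91, adjusted p = 0.011 and 0.0058). Radial glia and astrocyte markers summed to 704 to 798 CPM in WT, 877 to 911 in *Ocn*+/- and 761 to 1021 in *Ocn*-/- forebrain, with 0 of 5 called, and smooth muscle markers to 12.3 to 14.2, 8.45 to 12.04 and 8.98 to 10.2 CPM, with 0 of 3 tested called. The part of these shifts in the changes of *Pdk1* and *Pdk4* was not tested.

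The genes whose pattern over the libraries was most like that of a called member were found by the root mean square difference of log2 CPM, each gene centred on its own mean. Over 8 testes and 14295 protein-coding genes, *Gimap4*, *Fam162a* and *Tob1* were nearest to *Pdk1*, at 0.107, 0.111 and 0.113, where *Pdk1* itself spread by 0.436 around its mean. Nearest to *Pdk4* were *Gbp6*, *Abca8a* and *Klf14*, at 0.191, 0.193 and 0.207 against 0.613. Over 9 forebrains and 13607 genes, *Map2k6*, *Bnip3* and *Cdkn1c* were nearest to *Pdk1*, at 0.067, 0.073 and 0.082 against 0.338. The lists for *Pdk1* shared no gene between the organs. With only 3 genes kept in each, this cannot show whether *Pdk1* follows different genes in the organs.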

How the data were processed

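RNA of whole organs was sequenced by the authors as mRNA from 17 libraries. Reads were trimmed with Trim Galore 0.6.6, aligned to GRCm39 with STAR 2.7.8a and counted with RSEM 1.3.3, per the study's methods and the submitters' processing notes. The authors deposited expected counts per gene without normalization; RSEM divides reads that match several genes, and the table holds non-whole values for 9625 genes. Identifiers were named from GENCODE of GRCm39, where 54749 of 55359 were found. The authors' GENCODE release and the strandedness are not given in the sources used here. Counts were rounded and fitted with edgeR 4.0.16 (R 4.3.3): TMM, filterByExpr by genotype, robust quasi-likelihood tests (two-sided), each organ alone with 3 genotypes and both organs jointly. The study names edgeR without a design. DESeq2 1.42.0 was an alternative. The fit was checked on simulated data. The members and lists were chosen with earlier results of these data known. Some genes of the lists are not reported here, and list values are without them. Named genes are the 10 members, up to 4 called genes per list and comparison, genes that define a list, and the 3 genes nearest to each called member. Likeness used genes with a mean of at least 1 CPM and a pseudocount of 0.5. In testes 1 of 7 and in forebrain 3 of 9 pairs of same-numbered libraries had correlated deviations above 0.1. With so few libraries per genotype this cannot decide whether the numbers pair samples, and the main fit used no pairing. Libraries of a genotype differed by more than sampling noise. Other settings were upper quartile or DESeq2 scaling, unscaled libraries, other filters and tests, unrounded counts, a replicate block, only the genotypes compared, and each library left out. Counting intervals and floors cover counting error only.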

Additional observations from a re-analysis of the deposited data

Results flagged for a closer look

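For *Mpc2* and *Pdha1* the change of both mutant genotypes against WT differed between the organs by the test of the difference itself, at 0.57 and 0.46 on the log2 scale for forebrain minus testes (edgeR, adjusted p = 0.037 and 0.045). All 6 mutant testes were below both WT testes for both genes. For *Pdha1* all 6 mutant forebrains were above all 3 WT forebrains, and for *Mpc2* the forebrains overlapped. Such a separation was seen in 13.6% of all genes for lower testes and 6.85% for higher forebrains. It rests on the same values as the test and adds no support to it. Over the alternatives the adjusted p ran from 0.0089 to 0.17 for *Mpc2*, which was called in 14 of 26, and from 0.0087 to 0.26 for *Pdha1*, called in 9 of 26. No genotype has more than 3 libraries in an organ, so no library was tested as an outlier within its genotype.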

How the results depend on the processing

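Within an organ the number of called members was the same under every other scaling, filter and test, and varied only when a library was left out. It then was 1 to 2 in *Ocn*+/- testes. In *Ocn*-/- testes it was 0 to 3, where *Pdk1* and *Pdk4* were lost without WT testis 2 and *Pdha1* was gained without *Ocn*-/- testis 2. Forebrain *Pdk1* was called in each of 19 alternatives in both mutant genotypes. For the difference between organs 2 members were called, 1 with upper quartile scaling, 1 with DESeq2 size factors in edgeR, 0 with unscaled libraries and 1 without the filter, and 0 to 2 without single libraries. Between organs 8 members were called, and 9 with upper quartile scaling. *Pdk4* between testes and forebrain turned from -0.01 to 0.13 with upper quartile scaling, 0.30 with unscaled libraries, 0.0055 with at least 10 counts in every library and 0.0023 with the replicate block, and ran from -0.095 to 0.065 without single libraries. *Pdp1* ran there from -0.0052 to 0.067 without single libraries and was called with upper quartile scaling (0.18) and unscaled libraries (0.35), and *Pdk4* between *Ocn*-/- and *Ocn*+/- forebrain from -0.34 to 0.087. With the replicate block 2, 2, 1 and 1 members were called in the comparisons with WT, 0 and 0 between mutant genotypes, 2 for the difference between organs and 8 between organs, so the block changed no count of members. The labels give the libraries only a shared number, and whether it pairs samples is not known. Without single libraries the genes called over all genes varied widely, with 118 to 2019 in *Ocn*+/- testes and 85 to 1559 in *Ocn*-/- testes, both lowest without WT testis 2. In forebrain 625 and 780 genes became 183 and 189 without forebrain WT 3, and for the difference between organs 526 became 93 without WT testis 2. The causes were not tested. With 2 WT testes, small changes of members can miss the threshold.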
